A study of Juglans regia with 21 samples.

Results

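The walnut pellicle, the thin seed coat around the kernel, was followed here through its cellulose and secondary wall genes. Members were taken by product name alone: the NR or Swiss-Prot description had to name a cellulose synthase, COBRA, a fasciclin-like arabinogalactan protein, irregular xylem, a xylosyltransferase, glucuronoxylan or trichome birefringence, and genes described as xyloglucan enzymes were left out. The rule found 167 of the 31425 genes in the deposited table. Pellicles of field-grown *Juglans regia*, cultivar Xinwen179, were sampled untreated at 8, 9, 11, 13, 15, 17 and 19 weeks after pollination (stages 8W to 19W). Each of these 7 stages has 3 RNA-seq libraries. The study was set up to find genes tied to pellicle development.

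Cellulose is made at the plasma membrane by rosettes of cellulose synthase A (CESA) proteins. In Arabidopsis, CESA1, CESA3 and the CESA6-like isoforms serve the thin primary wall of growing cells, while CESA4, CESA7 and CESA8 serve the thick secondary wall of xylem vessels and fibres. Rice CESA9 belongs to the secondary set. In secondary walls the cellulose is embedded in xylan, a xylose backbone that irregular xylem (IRX) proteins build and that glucuronic acid, methyl and acetyl groups decorate. In seed coats, walls of both kinds occur, the secondary kind in the vascular strands and, in many species, in hardened cell layers.

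By class, the members were 49 trichome birefringence-like (TBL) genes, 29 fasciclin-like arabinogalactan (FLA) genes, 27 xylan and xylosyltransferase (XYL) genes, 25 cellulose synthase-like (CSL) genes, 22 CESA genes, 12 COBRA genes and 3 cellulose synthase interactive (CSI) genes. Gene names are those of the best database hit, and orthology was not tested. Enough reads for the test were found in 118 members: 37 TBL, 24 XYL, 18 CESA, 15 FLA, 12 CSL, 9 COBRA and 3 CSI. Of the other 49, 14 had 0 reads in every library and 35 had between 1 and 57 reads over the 21 libraries together. Counts below are out of the 118, a set that a gene can enter through the stage in which it is high. Levels are CPM, counts scaled to a common library size with trimmed-mean factors, as mean ± SD over the 3 libraries of a stage. A gene is said to rise or fall, or to be called, where edgeR's quasi-likelihood test gave a Benjamini-Hochberg adjusted p under 0.05 over the 21707 genes tested. Positions are those of the deposited table, whose genome build is not given in the sources used here.

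Total counts per library ran from 13144713 to 17878761. The closest library to any of the 21, by correlation, was of the same stage. The seed coat list, anthocyanidin and leucoanthocyanidin reductases of tannin synthesis, was expressed at every stage, with summed levels between 68.2 ± 4.79 CPM at 17W and 255 ± 12.4 CPM at 9W. At 19W 1 anthocyanidin reductase gene gave 146 ± 25.1 CPM of a sum of 185 ± 27.8 CPM. Of the 6 tested genes of this list, 1 rose and 4 fell at 19W against 8W (39% and 38.8% of all genes). Kernel storage transcripts were in the libraries too, with summed levels between 171 ± 80.7 CPM at 8W and 20594 ± 2593 CPM at 19W. They differed widely within 11W, where replicate 1 held 27643 CPM, replicate 2 held 14829 CPM and replicate 3 held 12998 CPM. Within 13W they differed widely too, at 4535 CPM in replicate 1, 6853 CPM in replicate 2 and 14659 CPM in replicate 3. Whether libraries of a stage stem from different trees is not stated in the labels. The p-values therefore cover only the spread among these libraries, which may be technical. Fewer cells of a type and less RNA per cell cannot be told apart in such bulk samples.

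All 118 tested members differed among the 7 stages (edgeR quasi-likelihood F-test), against 97.7% of all genes tested. Of these, 103 also had a highest stage mean of 2 or more times the lowest, which is 87.3% of the tested members, against 75.7% of all genes. Going through the stages from 8W to 19W, 39, 17, 22, 5, 6, 10 and 4 of the 103 had their highest mean there. As shares these were 37.9, 16.5, 21.4, 4.85, 5.83, 9.71 and 3.88%, while for all genes of the same kind they were 22.4, 16, 13.6, 9.23, 7.23, 18.4 and 13.1%. Early peaks thus took a larger share among the members than among all genes, and peaks at 17W and 19W a smaller one. No FLA and no CESA member that passed both criteria peaked after 11W.

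**Figure D1:**
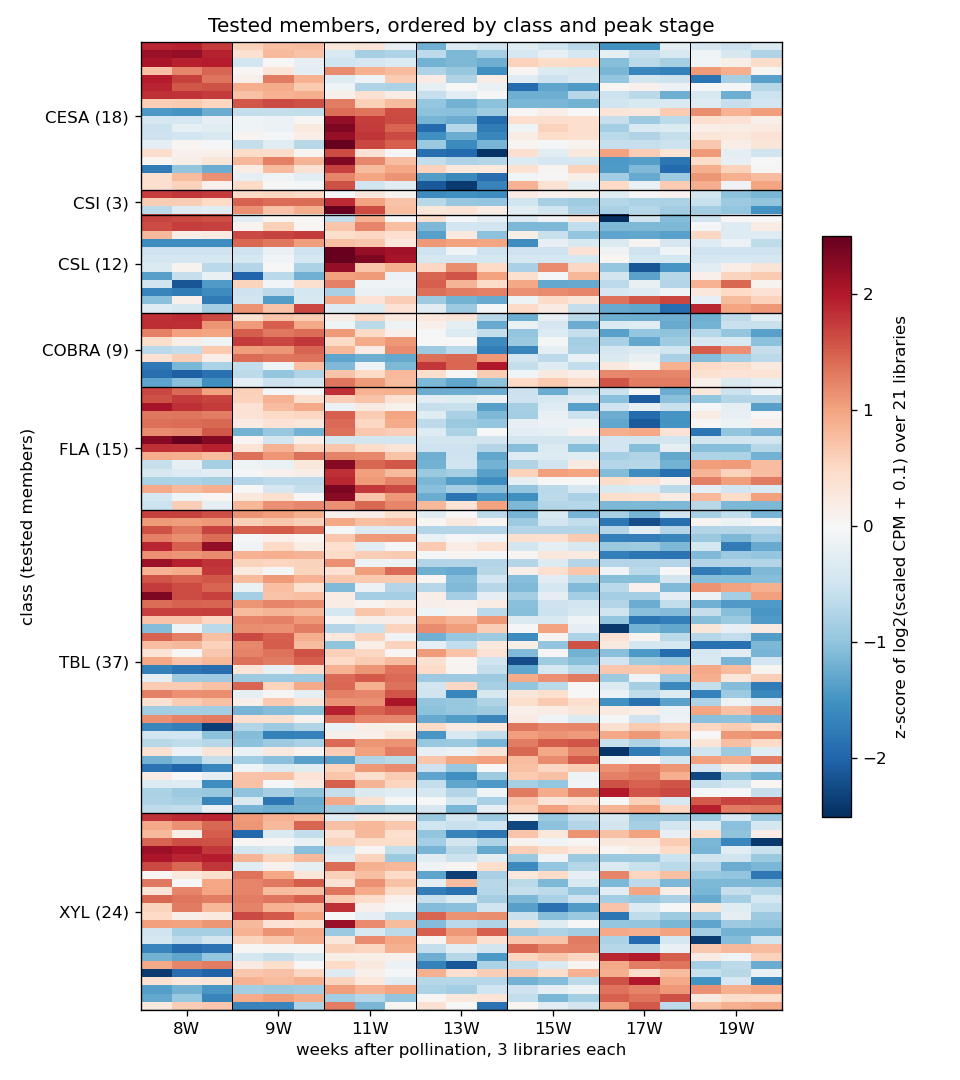
Levels of the 118 tested members (rows, grouped by class and ordered by peak stage) in the 21 libraries (columns, 3 per stage), as z-scores of log2(scaled CPM + 0.1) over libraries. Red blocks gather at 8W and 11W, and the 13W columns are mostly blue between them and 15W.

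The summed level of all members was, from 8W to 19W, 3151 ± 56.6, 3050 ± 27.8, 4823 ± 480, 2459 ± 95.8, 3203 ± 123, 3257 ± 33.3 and 3300 ± 132 CPM. The 11W sum was the highest and the 13W sum the lowest, and no library of either stage overlapped with any other stage. Replicate 1 of 11W stood above the other two libraries of its stage, with 5371 CPM against 4475 CPM in replicate 2 and 4624 CPM in replicate 3. It was the highest 11W library for 53.4% of tested members and for 39.8% of all genes tested. That replicate also held the most kernel storage transcript, and the part of this in the members' 11W levels was not tested.

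Secondary-type CESA genes were a feature of the earliest stage. The 5 tested genes with a CESA4, CESA7, CESA8 or rice CESA9 hit all peaked at 8W, and all 5 fell at 19W against 8W, where 39% of all genes tested rose and 38.8% fell. Summed, they had 110 ± 10.6, 23.4 ± 4.82, 12.4 ± 0.359, 7.37 ± 0.626, 16.0 ± 0.588, 8.01 ± 0.622 and 13.0 ± 1.31 CPM from 8W to 19W. Per kilobase of gene length they made up 7.62 ± 0.908% of all CESA transcript at 8W and between 0.518 ± 0.0648% (11W) and 1.62 ± 0.299% (9W) later. Even at 8W, then, most CESA transcript had a primary-type hit.

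CESA7 (Jr8SG00104000, chromosome 8S, 18243811 to 18250165) is a catalytic subunit of the secondary wall rosette. It had 0.328, 0 and 0.231 CPM in the 19W libraries, against 20.1, 19.2 and 17.6 CPM in the 8W libraries. The stages lay far apart with no overlap, and the log2 change was −6.62 ± 0.437 (SE; edgeR adjusted p = 1.5e-12). Without replicate 1 of 19W it was −7.25. In CPM, most of the drop came in the first week, the 9W libraries holding 2.93, 3.69 and 4.04 CPM. On the log2 scale the larger part came after 9W, the change at 9W against 8W being −2.42 ± 0.277 (edgeR adjusted p = 5.72e-08).

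Both CESA4 genes followed the same course. Jr2DG00254700 (chromosome 2D, 42431024 to 42436430) had 0.491, 0.39 and 0.54 CPM at 19W, against 25.5, 26.8 and 19.9 CPM at 8W, a log2 change of −5.64 ± 0.443 (edgeR adjusted p = 1.17e-10). Jr2SG00191600 (chromosome 2S, 36050036 to 36055260) had 2.21, 1.56 and 1 CPM at 19W, against 28.6, 30.1 and 22.2 CPM at 8W, a log2 change of −4.08 ± 0.257 (edgeR adjusted p = 6.22e-13). The groups did not overlap in either gene, and the S copy had the higher level of the pair, also per length, after 11W. The rice CESA9 hit Jr8DG00153600 was the weakest of the set, at 0.654 ± 0.265 CPM at 19W, against 6.06 ± 1.31 CPM at 8W, a log2 change of −3.19 ± 0.388 (edgeR adjusted p = 7.43e-08).

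CESA8 (Jr5DG00067400, chromosome 5D, 6559612 to 6564924), the remaining subunit of that rosette, did not stay low. Its levels over the 7 stages were 33.5 ± 1.06, 7.66 ± 1.22, 6.67 ± 0.333, 3.97 ± 0.13, 12.5 ± 0.549, 4.98 ± 0.656 and 10.1 ± 1.82 CPM. At 15W the libraries held 13.1, 12.1 and 12.3 CPM, against 3.97, 4.09 and 3.83 CPM at 13W. It rose at 15W against 13W by 1.66 ± 0.151 on the log2 scale (edgeR adjusted p = 3.62e-09), fell at 17W and rose again at 19W, where it was still lower than at 8W (log2 change −1.73 ± 0.133, edgeR adjusted p = 2.37e-11). From 15W on, CESA8 had at least 4.31 CPM in every library and CESA7 at most 0.328 CPM.

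**Figure D2:**
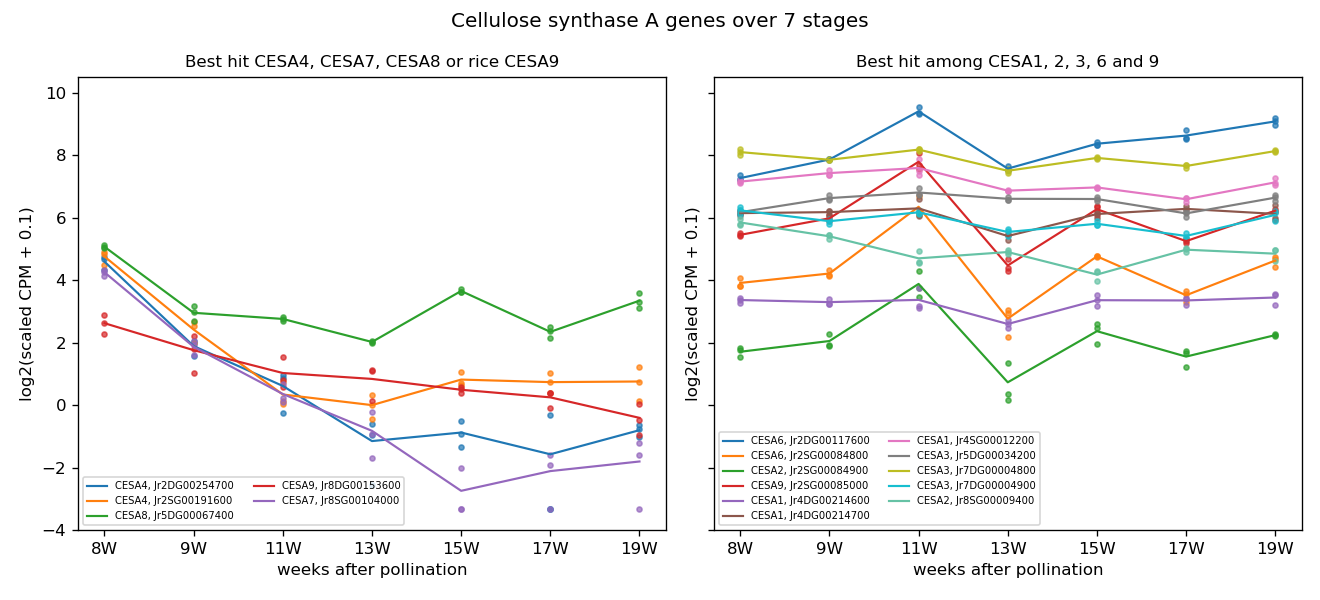
Levels of 16 CESA genes as log2(scaled CPM + 0.1) against weeks after pollination. Points are libraries and lines join stage means; genes with a CESA4, CESA7, CESA8 or rice CESA9 hit (left) have 8W means between 6.06 and 33.5 CPM and drop at 9W, while genes with CESA1, 2, 3, 6 or 9 hits (right) stay up, several with a high point at 11W and a low point at 13W.

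Primary-type CESA genes carried most of the cellulose synthase transcript throughout. Their 11 tested members summed to 920 ± 36.0, 1005 ± 21.4, 1780 ± 125, 741 ± 12.8, 1057 ± 13.0, 979 ± 36.7 and 1345 ± 79.8 CPM from 8W to 19W. At 19W against 8W, 4 of them rose, 1 fell and 6 were not called (39% of all genes rose and 38.8% fell). That split depended on the scaling, with 4 rising and 4 falling under upper-quartile factors and 3 rising and 5 falling under plain library sizes. The leader from 9W on was CESA6 (Jr2DG00117600, chromosome 2D, 12588435 to 12595908), a subunit of the primary wall rosette, which took 33.9% of the CESA sum at 11W. It had 580, 500 and 549 CPM at 19W, against 150, 147 and 166 CPM at 8W, with no overlap, and its log2 change was 1.82 ± 0.0819 (edgeR adjusted p = 1.27e-15).

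Between 13W and 11W the primary set moved as a block: 10 of 11 fell at 13W and none rose, while 32.1% of all genes tested rose and 35% fell. CESA6 had 186, 185 and 200 CPM at 13W, against 657, 639 and 740 CPM at 11W, a log2 change of −1.83 ± 0.0818 (edgeR adjusted p = 5.89e-15). The largest changes lay in 3 neighbouring gene models on chromosome 2S, between 8048239 and 8058732, whose best hits are CESA6 (Jr2SG00084800), CESA2 (Jr2SG00084900) and CESA9 (Jr2SG00085000). Their lengths are 982, 597 and 2255 bases, and whether they are separate genes was not tested. Jr2SG00085000 had 21, 25.8 and 19.5 CPM at 13W, against 270, 207 and 188 CPM at 11W, a log2 change of −3.33 ± 0.12 (edgeR adjusted p = 1.13e-15). Jr2SG00084800 changed by −3.60 ± 0.177 and Jr2SG00084900 by −3.22 ± 0.278 in the same comparison (edgeR adjusted p = 2.27e-13 and 5.2e-10). All 3 models were higher at 15W than at 13W, by 1.70 to 2.01 on the log2 scale.

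The CESA1 and CESA3 genes, which encode the obligate subunits of the primary rosette, varied less. CESA3 Jr7DG00004800 had the highest level of them, with its lowest mean, 181 ± 8.02 CPM, at 13W and its highest, 291 ± 5.98 CPM, at 11W. At 19W it had 290, 279 and 274 CPM, against 257, 275 and 292 CPM at 8W, so the groups overlapped, and its log2 change of 0.03 ± 0.0586 was not called (edgeR adjusted p = 0.636). Under upper-quartile factors it was −0.18 (edgeR adjusted p = 0.009) and under plain library sizes −0.30 (edgeR adjusted p = 6.55e-05), both called. The same scalings set the median log2 change of all genes at −0.216 and −0.342. CESA1 Jr4SG00012200 averaged 140 ± 11.1 CPM at 19W, against 143 ± 3.93 CPM at 8W, and was not called, but fell under the same scalings (−0.23 and −0.36, edgeR adjusted p = 0.0166 and 0.000563). The CESA1 gene Jr4DG00214700 averaged 69.6 ± 13.4 CPM at 19W, against 70.8 ± 3.04 CPM at 8W, and was called only under plain library sizes among the scalings (−0.36, edgeR adjusted p = 0.00856). Its shorter neighbour Jr4DG00214600 averaged 10.8 ± 1.41 CPM at 19W, against 10.2 ± 0.55 CPM at 8W, and was called under none of them. CESA3 Jr7DG00004900 averaged 68.1 ± 7.91 CPM at 19W, against 75.2 ± 5.96 CPM at 8W, a log2 change of −0.14 that was not called (edgeR adjusted p = 0.122). It was called at −0.19 to −0.25 without replicate 1 of 8W, 11W, 17W or 19W, replicate 2 of 9W, 13W, 15W or 19W, or replicate 3 of 11W. Upper-quartile factors gave −0.35 and plain library sizes −0.48, both called (edgeR adjusted p = 0.000541 and 1.72e-05). Without the count filter it was called at −0.19 (edgeR adjusted p = 0.048). CESA3 Jr5DG00034200 rose by 0.46 ± 0.0765 on the log2 scale (edgeR adjusted p = 7.34e-06), a call that plain library-size scaling loses. Jr8SG00009400, with a CESA2 hit, was the primary-type gene that fell, at 28.7 ± 3.82 CPM at 19W, against 57.5 ± 4.14 CPM at 8W.

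Both genes with a rice CESA5 hit were put in neither the primary nor the secondary set. Jr4SG00078600 peaked at 9W with 87.7 ± 3.36 CPM and ended at 18.7 ± 1.85 CPM at 19W, against 41.5 ± 1.88 CPM at 8W (log2 change −1.15 ± 0.129, edgeR adjusted p = 2.42e-08). Its partner Jr4DG00137400 peaked at 11W, where replicate 1 held 236 CPM and the other libraries 124 and 111 CPM, and was not called at 19W against 8W (log2 change 0.39, edgeR adjusted p = 0.122). Without that library it was called (0.34, edgeR adjusted p = 0.00887).

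CSI proteins tie moving CESA rosettes to cortical microtubules. All 3 members fell at 19W against 8W, where 38.8% of all genes fell, and all 3 fell at 13W against 11W, where 35% did. CSI3 (Jr8DG00031100) had 68.6, 57.1 and 54.8 CPM at 19W, against 141, 144 and 142 CPM at 8W, with no overlap and a log2 change of −1.24 ± 0.0702 (edgeR adjusted p = 8.3e-14). CSI1 Jr2SG00091900 averaged 35.8 ± 4 CPM at 19W, against 68.8 ± 2.15 CPM at 8W. CSI1 Jr2DG00124900, the most abundant, had its highest mean at 11W (249 ± 50.8 CPM), and its small fall at 19W against 8W (log2 change −0.23, edgeR adjusted p = 0.0331) is lost without replicate 2 or 3 of 8W or replicate 3 of 19W (adjusted p = 0.0807, 0.0888 and 0.0717).

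Of 10 tested genes for other proteins that accompany cellulose synthesis, 4 rose and 3 fell at 19W against 8W, shares near those of all genes (39% and 38.8%). The most abundant was chitinase-like protein 1 (Jr1SG00127400), needed for ordered cellulose in Arabidopsis, at 221 ± 9.51 CPM at 19W, against 173 ± 4.20 CPM at 8W (log2 change 0.35 ± 0.0663, edgeR adjusted p = 3.85e-05, and 0.02 under plain library-size scaling). Next was endoglucanase 25 (Jr5SG00178300), the KORRIGAN cellulase of the synthase complex, at 84.6 ± 11.1 CPM at 19W, against 47.1 ± 2.04 CPM at 8W (log2 change 0.84 ± 0.0766, edgeR adjusted p = 5.2e-10). Chosen after their values were seen, both tested genes for chitinase-like protein 2, which acts in secondary wall cellulose, behaved otherwise. Jr1SG00092200 averaged 0.342 ± 0.0425 CPM at 19W, against 29.3 ± 4.28 CPM at 8W, and Jr1DG00101000 at 11.8 ± 0.675 CPM at 19W, against 56.4 ± 4.31 CPM at 8W, and both fell.

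CSL proteins are relatives of the CESAs, and some of them make other wall glycans. What the CSL members here make was not tested. The 25 members comprised 12 CSLG, 9 CSLE, 3 CSLH and 1 CSLD gene, the last with 0 reads. At 19W against 8W, 6 of 12 tested members rose and 2 fell (39% and 38.8% of all genes). CSLE6 (Jr6DG00202600, chromosome 6D, 37382104 to 37388404) gave most of the class sum from 9W on, up to 88.3% at 13W. Its libraries held 155, 148 and 146 CPM at 13W, against 47.9, 67.3 and 66.8 CPM at 11W, so it was high where most other members were low. It rose there by 1.3 ± 0.0938 on the log2 scale (edgeR adjusted p = 2.44e-11), the only one of the 12 tested CSL members to rise between these stages, and it fell by 1.12 at 17W against 15W (edgeR adjusted p = 3.99e-10).

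CSLG3 (Jr6DG00124600), the first of 9 CSLG genes in a run on chromosome 6D (29275469 to 29429763), was highest at 8W. It had 0.745, 2.01 and 0.683 CPM at 9W, against 13.1, 15.2 and 14.7 CPM at 8W, a log2 change of −3.64 ± 0.419 (edgeR adjusted p = 2.46e-07) that was −4.29 without replicate 2 of 9W. At 17W none of its reads were found in any library, and at 19W it stood at 0.604 ± 0.308 CPM. CSLG2 (Jr1DG00203500) took the opposite course, with its highest mean, 11.3 ± 1.31 CPM, at 17W. Its rise at 19W against 8W, 1.23 on the log2 scale, was 1.99 without replicate 2 of 8W, the highest library of that stage. CSLE1 (Jr5DG00102100), the remaining abundant CSL member, was highest at 11W with 11.3 CPM and lowest at 17W with 3.11 CPM, and it was not called at 19W against 8W (edgeR adjusted p = 0.438). The 3 CSLH genes, a family that makes mixed-linkage glucan in barley, together had 10, 5.71 and 4.66 CPM in the 11W libraries and at most 0.857 CPM in any library of another stage.

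COBRA proteins are anchored at the outer face of the plasma membrane and are needed for oriented cellulose deposition. Of 9 tested members 4 rose and 5 fell at 19W against 8W (39% and 38.8% of all genes). COBL4 (Jr2DG00076300, chromosome 2D, 7021177 to 7024119), the member that acts in secondary walls in Arabidopsis and rice, had 0, 0.156 and 0.386 CPM at 19W, against 14.9, 16 and 11.1 CPM at 8W. The groups lay far apart, and its log2 change was −6.19 ± 0.576 (edgeR adjusted p = 4.13e-09), or −7.36 without replicate 3 of 19W. As with CESA7, a part of the log2 change came in the first week (−2.95 ± 0.393, 9W against 8W, edgeR adjusted p = 1.52e-06).

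COBL7 (Jr1DG00161100, chromosome 1D, 33210792 to 33214390) went the other way and became the leading COBRA transcript, with 85.1% of the class sum at 17W. Its stage means were 18.0 ± 1.94, 66.1 ± 12, 347 ± 61.3, 251 ± 82.4, 182 ± 37.4, 632 ± 9.56 and 237 ± 7.54 CPM. The libraries of 17W held 621, 635 and 639 CPM, against 140, 212 and 194 CPM at 15W, and its rise there was 1.79 ± 0.214 on the log2 scale (edgeR adjusted p = 2.3e-06). At 13W its libraries were spread from 164 to 328 CPM and overlapped with those of 11W. The log2 change of −0.47 between these stages was not called (edgeR adjusted p = 0.0598).

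The genes hit by COBRA itself, the founding member that orients cellulose in expanding root cells of Arabidopsis, differed at 13W against 11W. Jr6SG00016800 was at 30 ± 1.48 CPM at 13W, against 68.5 ± 6.76 CPM at 11W, and fell by 1.19 on the log2 scale (edgeR adjusted p = 3.34e-11). Jr6DG00054800 was at 48.1 ± 2.08 CPM at 13W, against 26.1 ± 0.285 CPM at 11W, and rose by 0.88 ± 0.0746 (edgeR adjusted p = 3.68e-10). The pair thus moved in opposite directions in the same libraries.

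FLA proteins are cell surface glycoproteins, and FLA11 and FLA12 are known for secondary walls of Arabidopsis stems. Of 15 tested FLA members 11 fell and 4 rose at 19W against 8W (38.8% and 39% of all genes). At 11W against 9W, 9 rose and none fell (34.3% and 31.6% of all genes). At 13W against 11W, 13 fell and none rose (35% and 32.1% of all genes). All 4 tested FLA11 and FLA12 genes fell at 19W against 8W. They did not share one course, as 3 peaked at 8W and 1 at 11W. At 9W against 8W, 3 of them fell and 1 rose (31.1% and 34.4% of all genes). FLA12 Jr7DG00109400 (chromosome 7D, 12175065 to 12181275) had 0, 0 and 0.0771 CPM at 19W, which is 1 read in all, against 10.3, 10.1 and 12.6 CPM at 8W. The ratio of means was 419-fold lower at 19W (95% Poisson interval 75.1 to 16537, counting error only; edgeR adjusted p = 4.09e-11). That read lay in replicate 3, and the fitted log2 change of −8.31 became −10.38 without it, a value that depends on the prior count. This gene closes a run of 11 FLA11 and FLA12 genes between 12005771 and 12181275, of which 2 could be tested and 3 had 0 reads. Neighbours with one product name may share reads, their sequences were not compared, and how multi-mapped reads were counted is not given in the sources used here.

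Genes with an FLA17 hit were the most abundant of the class. Jr5SG00019000 (chromosome 5S, 1704029 to 1706040) had 18.6, 14.8 and 13.0 CPM at 13W, against 266, 129 and 151 CPM at 11W, a log2 change of −3.55 ± 0.238 (edgeR adjusted p = 1.81e-09). The highest 11W value belonged to replicate 1, and the stages did not overlap. It regained 147 ± 17.6 CPM at 19W, against 25.2 ± 0.651 CPM at 8W, a log2 change of 2.54 ± 0.224 (edgeR adjusted p = 2.52e-08). Jr5DG00021900 alternated, with means of 72.2 CPM at 11W, 17.7 CPM at 13W, 56.3 CPM at 15W, 13.5 CPM at 17W and 51.8 CPM at 19W. Jr5SG00019000 had no such drop at 17W, averaging 68 CPM there and less than 56.3 CPM at 15W. Jr5SG00019200, a neighbour of Jr5SG00019000 with the same hit, instead fell at 19W against 8W, to 28.8 ± 1.71 CPM, against 54.8 ± 0.533 CPM at 8W. FLA18 (Jr7DG00043600) had 19.8, 9.12 and 7.86 CPM at 11W and means of at most 2.86 CPM at the other stages.

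Xylan genes moved both ways. Of 15 tested with a xylan name, 4 rose and 9 fell at 19W against 8W (39% and 38.8% of all genes). Glucuronoxylan 4-O-methyltransferase 3 (GXM3, Jr2DG00016000, chromosome 2D, 1391840 to 1392724), which methylates the glucuronic acid side groups of xylan, had 0, 0.156 and 0 CPM at 19W, 2 reads in all, against 12.2, 13.6 and 14.4 CPM at 8W. The ratio of means was 255-fold lower at 19W (95% Poisson interval 70.6 to 2107, counting error only; edgeR adjusted p = 2.67e-11), and both reads lay in replicate 2, without which the fitted log2 change of −7.78 was −10.67. IRX7 (Jr7DG00124200), a glycosyltransferase of the xylan end sequence, was the most abundant xylan gene at 8W. It had 28.7, 22.4 and 23.6 CPM at 19W, against 91.4, 82.3 and 98.3 CPM at 8W, a log2 change of −1.87 ± 0.145 (edgeR adjusted p = 3.01e-10).

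F8H (Jr5DG00033000), the close relative of IRX7 in the same step, did the reverse. It had 35.1, 38.2 and 38.1 CPM at 19W, against 6.98, 5.80 and 6.10 CPM at 8W, a log2 change of 2.56 ± 0.136 (edgeR adjusted p = 2.5e-14), and was highest at 15W (54.5 ± 4.26 CPM). IRX9H hits, which belong to the xylan backbone synthase complex, were also divided. Jr8DG00144500 (chromosome 8D, 30749352 to 30755705) had 75.4, 62.9 and 66.4 CPM at 19W, against 12.7, 14.7 and 12 CPM at 8W, and rose by 2.38 ± 0.111 (edgeR adjusted p = 2.37e-15). Jr4DG00201100 had 5.41, 3.98 and 2.39 CPM at 19W, against 27.9, 30.8 and 30.2 CPM at 8W, and fell by 2.92 (edgeR adjusted p = 2.2e-13). Jr8SG00098800 swung between stages, with means of 8.62, 31.6, 11.0, 20.4, 11.0, 42.8 and 22.5 CPM.

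At 17W against 15W, 9 of the 15 xylan genes rose and 1 fell, while over all 118 members 24 rose and 33 fell (background 29.3% higher and 30.8% lower). Jr8DG00144500 had 86.9, 79.9 and 72.5 CPM at 17W, against 23.5, 28.4 and 30.9 CPM at 15W, a log2 change of 1.53 ± 0.105 (edgeR adjusted p = 1.26e-11). IRX14 (Jr1DG00014000), another backbone protein, named after its values were seen, had 45.5, 46.9 and 40.4 CPM at 17W, against 29.5, 30.7 and 29.3 CPM at 15W, and rose by 0.57 ± 0.0929 (edgeR adjusted p = 1.23e-05). F8H (Jr5DG00033000) fell there by 1.82 on the log2 scale (edgeR adjusted p = 1.15e-11).

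The name rule also took in 10 genes with other xylosyltransferase-like descriptions, 9 of them tested. GlcAT14B (Jr2DG00233000), which in Arabidopsis adds glucuronic acid to arabinogalactan proteins, was the most abundant XYL member at 9W and 13W. Its means alternated, at 40.2 ± 2.29, 65.5 ± 2.44, 41.0 ± 3.12, 73.1 ± 4.77, 38.7 ± 0.752, 64.9 ± 1.16 and 36.4 ± 2.02 CPM, with no overlap between any consecutive stages. Zeatin O-xylosyltransferase (Jr5SG00032600), which in bean adds xylose to a cytokinin hormone and not to a wall glycan, was highest at 9W and 13W, with 10.3 ± 3.33 and 8.57 ± 1.73 CPM, and at most 3.04 ± 0.638 CPM elsewhere. Summed transcript of LHY and CCA1, clock genes that peak at dawn, was 28.9 ± 3.52, 502 ± 41.5, 41.6 ± 6.07, 359 ± 11.6, 208 ± 4.14 and 95.7 ± 7.13 CPM from 8W to 17W, and 410, 383 and 384 CPM in the 19W libraries. It too was high at 9W and 13W and low at 8W and 11W. The clock sum and GlcAT14B were also both lower at 15W than at 13W, but after 15W they went opposite ways. At 17W against 15W the clock sum was lower and GlcAT14B higher, and at 19W against 17W the clock sum was higher and GlcAT14B lower. The part of sampling hour in these alternations was not tested.

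TBL proteins acetylate wall polysaccharides, and the family is the largest class. Of 37 tested, 11 rose and 24 fell at 19W against 8W (39% and 38.8% of all genes). TBL33 Jr1DG00301500, named for a xylan acetyltransferase of Arabidopsis, had 0.0819, 0.156 and 0 CPM at 19W, 3 reads in all, against 13.9, 14 and 11.6 CPM at 8W. The ratio of means was 167-fold lower at 19W (95% Poisson interval 57.1 to 810, counting error only; edgeR adjusted p = 1.74e-11), and the fitted log2 change of −7.24 was −8.14 without replicate 2 of 19W. TBL36 Jr7SG00035100 had 0.246, 0.0779 and 0 CPM at 19W, against 10, 10.2 and 10.4 CPM at 8W, a log2 change of −6.49 ± 0.596 (edgeR adjusted p = 6.13e-10), or −7.76 without replicate 1 of 19W. TBL36 Jr7DG00038200 kept a higher level, 1.93 ± 0.247 CPM at 19W, against 32.4 ± 1.35 CPM at 8W.

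TBL10 Jr4DG00106200, named for an Arabidopsis protein that acetylates the pectin rhamnogalacturonan I, led the class at 8W and 13W. It had 27.8, 23.8 and 28 CPM at 19W, against 148, 139 and 165 CPM at 8W, a log2 change of −2.5 ± 0.11 (edgeR adjusted p = 1.73e-15). This gene overlaps one on the opposite strand with 2183 reads over all libraries, and whether counting used strand is not given in the sources used here. TBL25 hits, named for a mannan acetyltransferase of Arabidopsis, split by chromosome. Jr1DG00076300, which overlaps an opposite-strand gene with 446 reads, had 11.5, 12.5 and 10.8 CPM at 19W, against 2.19, 2.04 and 1.21 CPM at 8W, and rose by 2.68 ± 0.185 (edgeR adjusted p = 3.33e-12). Jr1SG00042800 fell to 12.8 ± 1.64 CPM at 19W, against 46.8 ± 1.42 CPM at 8W, with its lowest mean, 1.16 ± 0.303 CPM, at 17W. TBL10 Jr1SG00105400 had 8.64, 8.57 and 9.94 CPM at 15W, against 18, 16.7 and 18.8 CPM at 13W, and fell by 0.98 (edgeR adjusted p = 2.57e-06).

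Genes with a TBL38 hit swung widely between consecutive stages. Jr5SG00055600 (chromosome 5S, 5292463 to 5295549) had 0.231, 0.163 and 0.142 CPM at 17W, against 12.9, 20.6 and 18.9 CPM at 15W, a log2 change of −6.56 ± 0.306 (edgeR adjusted p = 4.54e-14). At 8W it had held 125, 118 and 139 CPM. Jr5DG00063800 (chromosome 5D, 6193502 to 6198255) alternated, with means of 15.2 ± 0.779, 11.3 ± 1.43, 165 ± 37, 10 ± 1.61, 224 ± 39.3, 16.8 ± 2.58 and 69.6 ± 19.0 CPM. It rose at 15W against 13W by 4.48 ± 0.228 on the log2 scale (edgeR adjusted p = 1.1e-10) and fell by 3.73 at 17W against 15W (edgeR adjusted p = 2.63e-10). Jr7DG00009900, with the same hit, instead rose at 13W, to 23.4, 26.6 and 27.1 CPM, against 9.84, 12.7 and 13.1 CPM at 11W.

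Over the whole span, 19W against 8W, 34 members rose and 67 fell, while 39% of all genes tested rose and 38.8% fell. The median log2 change was −0.70 over the members and −0.01 over all genes. Every class but CSL had more falls than rises. Leaving out members that overlapped between both stages or stayed below 10 CPM, the 10 largest falls were in CESA4, CESA7, COBL4, FLA12, GXM3, TBL33, TBL36, TBL38 and CSLG3 genes. By the same limits the 10 largest rises included COBL7, whose libraries held 245, 230 and 235 CPM at 19W, against 18.9, 15.8 and 19.3 CPM at 8W (log2 change 3.72 ± 0.243, edgeR adjusted p = 5.62e-10). The others were genes with TBL25, F8H, FLA17, IRX9H, TBL38, TBL39, TBL33, CESA6 and TBR hits, each called by the same test, with log2 changes between 1.71 and 2.68. TBL39 (Jr2DG00174800) had 73.5, 46.5 and 48.4 CPM at 19W, against 12.1, 12.2 and 16.7 CPM at 8W. TBR itself, trichome birefringence, is a protein needed for crystalline cellulose in Arabidopsis trichomes. Its hit Jr5SG00023900 had 74.4, 63.5 and 79.8 CPM at 19W, against 22, 22.4 and 22 CPM at 8W. The D gene of that hit, Jr5DG00026800, had 55.1, 55 and 48.2 CPM at 19W, against 45.5, 44.2 and 43.8 CPM at 8W. Its small rise (log2 change 0.25 ± 0.0722, edgeR adjusted p = 0.00361) was 0.04 with upper-quartile factors and −0.09 with plain library sizes, neither of them called, and 0.16 without replicate 2 of 19W (edgeR adjusted p = 0.0727). Kernel storage transcripts summed to 20594 ± 2593 CPM at 19W, against 171 ± 80.7 CPM at 8W, and their part in the members' changes was not tested.

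**Figure D3:**
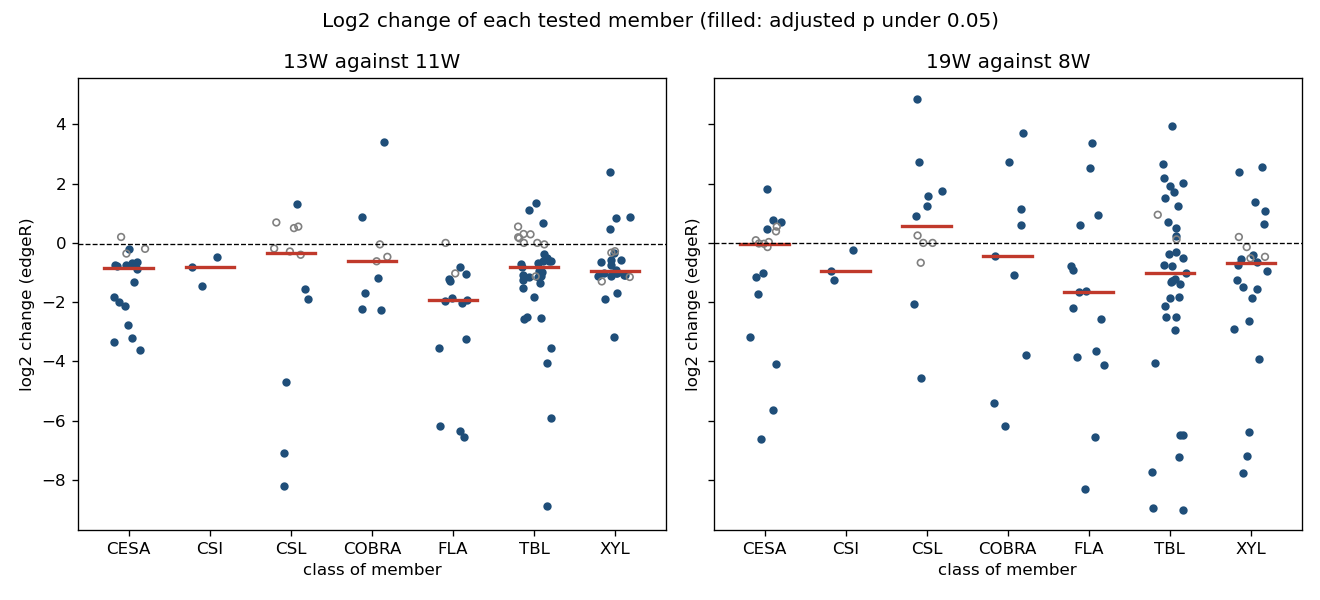
Log2 change of each tested member at 13W against 11W (left) and at 19W against 8W (right), by class. Filled points passed the edgeR test at an adjusted p under 0.05, open points did not, and red bars are class medians. At 13W against 11W every class median lies below 0, and at 19W against 8W the CSL median lies above it.

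The most one-sided step between consecutive stages came at 13W. Against 11W, 10 members rose and 81 fell, where 32.1% of all genes rose and 35% fell, and the median log2 change was −1.0 over the members and −0.04 over all genes. Falls outnumbered rises in each class: 15 to 0 in CESA, 3 to 0 in CSI, 5 to 1 in CSL, 4 to 2 in COBRA, 13 to 0 in FLA, 25 to 3 in TBL and 16 to 4 in XYL. The TBR gene Jr5SG00023900 is an example, with 19.9, 20.9 and 21.7 CPM at 13W, against 139, 103 and 113 CPM at 11W (log2 change −2.51 ± 0.11, edgeR adjusted p = 4.58e-15). Without replicate 1 of 11W, 79 members fell and 10 rose. Summed mitosis transcripts, A and B cyclins, were 147 ± 2.01 CPM at 13W, against 188 ± 32.1 CPM at 11W. Of the 11 tested, 9 fell and 2 rose, with a median log2 change of −2.36, so the sum does not show the size of most falls. The part of mitosis in the members' fall was not tested.

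Splits at the other steps were less one-sided. At 9W against 8W, 37 members rose and 45 fell (34.4% and 31.1% of all genes), with all 5 secondary-type CESA genes among those that fell. At 11W against 9W, 50 rose and 31 fell (34.3% and 31.6% of all genes). With plain library-size scaling that last split was 39 to 38, and the median log2 change of all genes −0.122. At 15W against 13W, 44 rose and 20 fell (24.8% and 26.3% of all genes), 11 CESA and 17 TBL members rising. At 19W against 17W, 38 rose and 24 fell (28.5% and 26.1% of all genes), with 10 CESA and 7 CSL members rising and none of the CESA members falling, while 10 XYL members fell and 1 rose.

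Other stage pairs were compared as well, chosen after the data were seen by their LHY and CCA1 sums. The sums still differed within pairs, at 95.7 ± 7.13 CPM at 17W, against 28.9 ± 3.52 CPM at 8W, for example, and the part of sampling hour was not tested. At 13W against 9W, 11 members rose and 75 fell, with 34.1% of all genes rising and 33% falling. At 17W against 8W, 26 rose and 67 fell (39.1% and 39.3% of all genes). At 11W against 8W, 45 rose and 40 fell (34.6% and 31% of all genes), and at 19W against 13W, 35 rose and 28 fell (29.2% and 30% of all genes). At 17W against 11W, 18 rose and 72 fell (34.6% and 37.4% of all genes).

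Like-named genes on chromosomes of the same number but of the D and the S set formed 26 pairs, of which 21 had both genes tested. Per kilobase, the D gene had the higher mean level in 16 of these and the S gene in 5, and 4 pairs were more than 5-fold apart. Both genes were called at 19W against 8W in 17 pairs, and 10 of those moved in opposite directions. How often like-named pairs of all genes differ in these ways was not computed. The COBL7 pair was furthest apart in level, with the D gene 113-fold above the S gene Jr1SG00093100 per kilobase, and log2 changes of 3.72 for D and −5.41 for S. In the TBL38 pair the D gene Jr5DG00063800 rose by 2.20 and the S gene Jr5SG00055600 fell by 6.5, while in the TBL33 pair the D gene fell and the S gene Jr1SG00185200 rose by 1.92. The CESA6, TBL36, IRX9H and GXM3 pairs moved in the same direction and shared their highest stage. In the CESA6 pair the S model, Jr2SG00084800, is 982 bases long and the D gene 2817 bases.

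**Figure D4:**
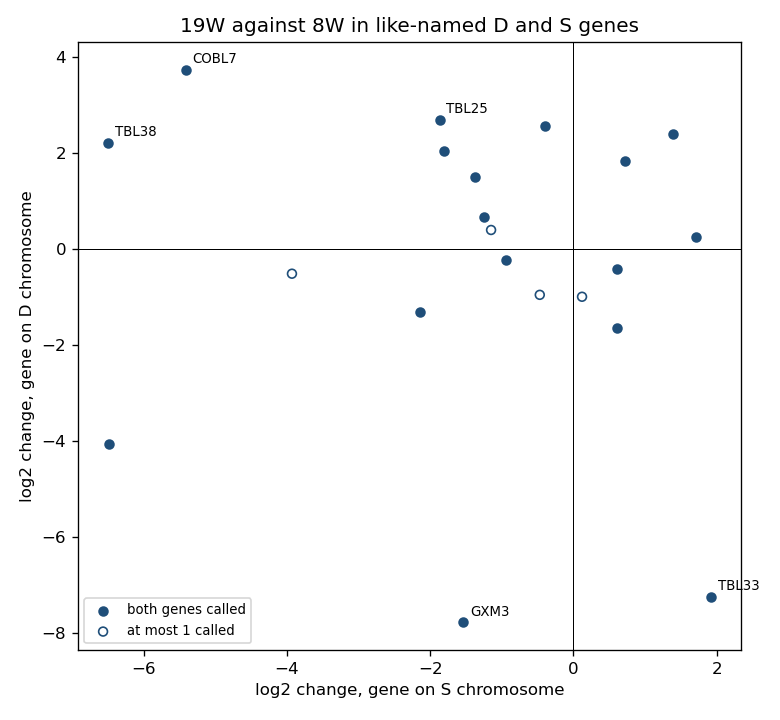
Log2 change at 19W against 8W for 21 like-named pairs of tested members, the gene on the S chromosome along the horizontal axis and the gene on the D chromosome along the vertical axis. Filled points have both genes called, and 10 of the 17 such points lie in the quadrants where the genes moved in opposite directions.

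Regulators that switch on secondary walls in Arabidopsis were set beside the members. Of 17 tested, 5 rose and 10 fell at 19W against 8W (39% and 38.8% of all genes). The most abundant were 2 of the 4 tested NAC73 hits, named for a regulator of fibre walls. Jr5SG00049800 averaged 69.3 ± 3.13 CPM at 19W, against 2.37 ± 1.19 CPM at 8W (log2 change 4.88 ± 0.193, edgeR adjusted p = 6.77e-16), and Jr5DG00059800 averaged 25.8 ± 2.80 CPM at 19W, against 6.33 ± 1.56 CPM at 8W. Of the other NAC73 hits, described after their values were seen, Jr2DG00169700 also rose, by 1.63 on the log2 scale, and Jr2SG00120900 fell, to 0.0793 ± 0.078 CPM at 19W, against 2.03 ± 0.382 CPM at 8W (edgeR adjusted p = 6.69e-06). Chosen after their values were seen, the MYB46 and MYB83 hits, top-level switches of the secondary wall programme, and the NAC7 hits, vessel regulators, were low at 19W like the secondary-type CESA genes. MYB83 Jr7SG00001500 averaged 0.052 ± 0.09 CPM at 19W, against 2.72 ± 0.574 CPM at 8W. MYB46 Jr7DG00163300 averaged 0.133 ± 0.124 CPM at 19W, against 1.84 ± 0.0492 CPM at 8W. NAC7 Jr6DG00155600 averaged 0.104 ± 0.117 CPM at 19W, against 4.09 ± 0.298 CPM at 8W. Each of these fell in the same test. NAC76 (Jr8DG00104400), a vessel regulator too and also chosen after its values were seen, rose to 23.8 ± 3.08 CPM at 19W, against 0.465 ± 0.0426 CPM at 8W.

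**Figure D5:**
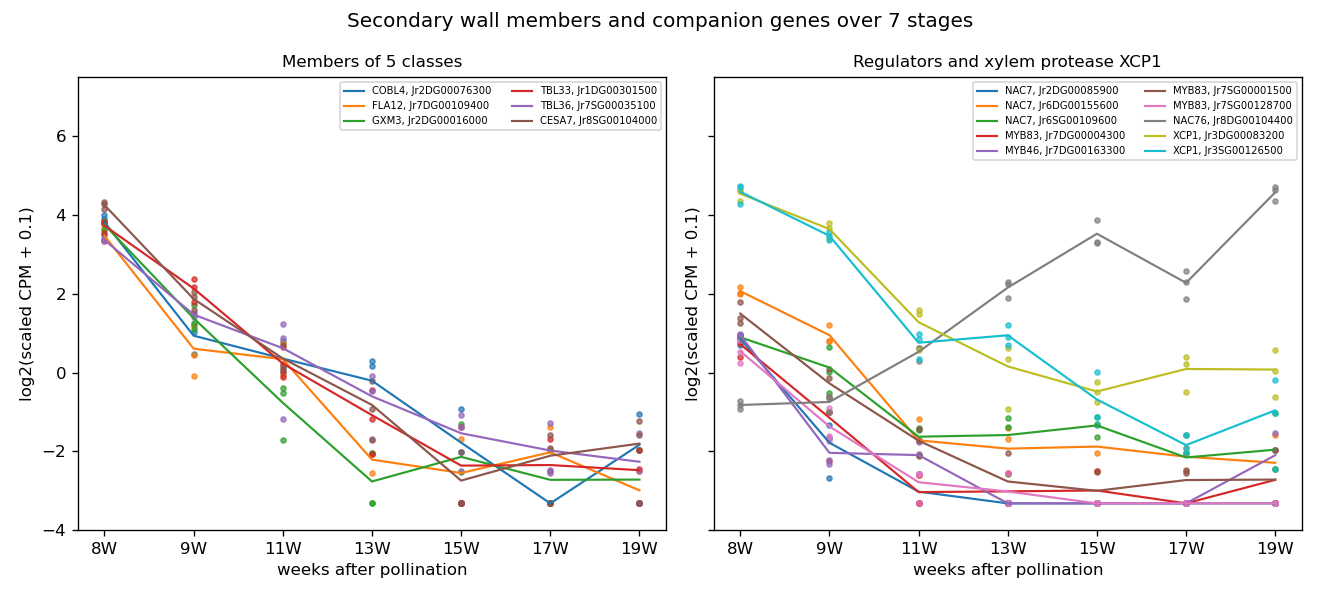
Levels as log2(scaled CPM + 0.1) against weeks after pollination for 6 secondary wall members (left) and for some regulators and the xylem protease genes (right). Points are libraries, lines join stage means, and points at the bottom edge are libraries with 0 reads. The regulators drawn are the tested MYB46, MYB83, NAC7 and NAC76 hits. The NAC73, NAC37, NAC30 and HD1 hits of the list, among them the most abundant regulators, are not drawn. The 6 members, the MYB46, MYB83 and NAC7 hits and both XCP1 genes drop after 8W, and NAC76 has its highest level at 19W.

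The xylem marker list holds a pair of genes for XCP1, a protease of developing vessels, and both fell. Their sum was 47.2 ± 6.44, 23.4 ± 1.33, 3.92 ± 0.674, 2.85 ± 0.73, 1.14 ± 0.35, 1.14 ± 0.274 and 1.37 ± 0.392 CPM from 8W to 19W. It declined beside the secondary-type CESA, COBL4, FLA12 and GXM3 transcripts, and its part in their decline was not tested. Of 16 tested phloem genes 8 fell and 5 rose at 19W against 8W (38.8% and 39% of all genes). Their median log2 change was −1.56. All that fell are SIEVE ELEMENT OCCLUSION genes, proteins of sieve tubes, such as Jr2SG00030400, with 1.51 CPM at 19W, against 46.5 CPM at 8W. The phloem sum, 752 ± 67.6 CPM at 19W, against 386 ± 43.2 CPM at 8W, was carried by the phloem lectin-like genes Jr5DG00073900 and Jr5DG00074000, which rose. The part of these cells in the members' changes was not tested. Of 24 tested photosynthesis genes 12 rose and 7 fell at 19W against 8W (39% and 38.8% of all genes). That split was 11 to 9 with upper-quartile factors and 10 to 10 with plain library sizes.

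Of 33 tested genes that supply the sugar nucleotides for these enzymes, 11 rose and 15 fell at 19W against 8W, shares near those of all genes (39% and 38.8%). Sucrose synthase, which can feed UDP-glucose to cellulose synthesis, gave the largest transcripts. Jr4DG00122100 had means of 1331, 1120, 3314, 1606, 3265, 824 and 2328 CPM over the 7 stages, and Jr2DG00195600 of 1721, 373, 1771, 454, 1245, 150 and 378 CPM. Both were lower at 13W and 17W than at 11W and 15W. At 13W against 11W, 15 of the 33 fell and 4 rose (35% and 32.1% of all genes). Taken after its values were seen, UDP-glucose 6-dehydrogenase (Jr2DG00082100), which opens the route to xylan precursors, averaged 699 ± 25.8 CPM at 19W, against 39.9 ± 4.91 CPM at 8W, with its highest mean, 1160 ± 74.0 CPM, at 17W.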

How the data were processed

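The deposited table holds whole-number counts per gene and FPKM values for the same genes and libraries, both made by the authors. Libraries were stranded, after poly(A) selection and removal of ribosomal RNA, per the labels' protocols. The submitters' processing notes name FastQC, HISAT2, Cufflinks and DESeq2. The genome build, annotation, counting tool and use of strand were not given in the sources used here. The deposited FPKM values were used only to check the counts, from which they differ by at most 5.15e-15 in relative terms once scaled by length and library total. A count of 16 libraries stands in the protocol text of the labels, whereas 21 were analysed. Pairs of libraries of a stage differed by a chi-square of 3.07 to 27 per degree of freedom, so none were merged.

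Genes with enough counts (filterByExpr, minimum count 10; 21707 genes) were fitted in edgeR 4.0.16 (limma 3.58.1, R 4.3.3) with TMM scaling and a robust quasi-likelihood fit over all 21 libraries. The common biological coefficient of variation was 0.102. Calls used a Benjamini-Hochberg adjusted p under 0.05 across all genes. Standard errors are the absolute log2 fold change divided by the square root of F. DESeq2 1.42.0, other scalings and filters, each library left out and a replicate block were the alternatives. Scripts were tested on simulated data. Poisson intervals, at 95%, cover counting error only.

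The members and gene lists (regulators, sugar nucleotide supply, cellulose accessory proteins, and markers of seed coat, kernel, xylem, phloem, photosynthesis, mitosis and the morning clock) were chosen with earlier results of these data known. Genes named are the 3 highest of each class, every CESA gene reaching 1 CPM, the 10 largest rises and falls at 19W against 8W and the 2 largest per step among genes with at least 10 CPM and no overlap, the 5 widest ranges, and the 2 most abundant tested genes of the regulator, sugar nucleotide, accessory protein and xylem lists. Other genes were named after their values were seen. Seed coat, kernel, mitosis, photosynthesis and clock lists are given as sums or counts, the seed coat list also by its largest gene at 19W. None of the gene identifiers matched the reference table, so names are the authors'.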

Additional observations from a re-analysis of the deposited data

How the results depend on the processing

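Each count of members called kept within 1.5 times its value under other scalings, filters, DESeq2, a replicate block and each library left out. The exception was the comparison of 17W with 11W in place of 15W, where 72 members fell, against 33 at 17W against 15W, with the cause not tested. Leaving out 1 library at a time gave 31 to 34 rises and 65 to 71 falls at 19W against 8W, 9 to 10 and 74 to 82 at 13W against 11W, 43 to 50 and 29 to 35 at 11W against 9W, 33 to 40 and 41 to 47 at 9W against 8W, 40 to 44 and 15 to 21 at 15W against 13W, 20 to 25 and 31 to 36 at 17W against 15W, and 33 to 39 and 22 to 26 at 19W against 17W.

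Changes that reversed at 19W against 8W were those of Jr5DG00026800 (−0.09 with library sizes alone) and of Jr7DG00004800 (−0.18 with upper-quartile factors, and −0.30 where plain library sizes were used), with the cause not tested. A replicate block gave 33 rises and 67 falls at 19W against 8W and 10 and 81 at 13W against 11W. Same-numbered libraries of different stages did not deviate together (63 pairs, r between −0.0838 and 0.0617, none over 0.1), and 10 of 21 libraries correlated best with one of their own number, so the numbers were not taken to pair samples. Depth limits the members with 1 to 3 reads at 19W, whose ratios have wide intervals, and the 35 untested members that had reads.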
